A study of Rattus norvegicus with 8 samples.

Results

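The genes described here are the channels, sensors, pumps and exchangers that move calcium across the plasma membrane and in and out of the intracellular stores of the rat kidney. A fixed list of 44 gene symbols defined them, and a probe set belonged to the list where the platform annotation gave it exactly 1 of these symbols. The rule found 72 probe sets for 43 of the 44 genes, out of 14218 genes and 31099 probe sets on the array. No probe set carried Cacna2d2 as its only symbol, so this gene has no value here. The list holds 10 genes of voltage-gated pore subunits (20 probe sets), 10 measured genes of their auxiliary subunits (14), 6 of store release channels (8), 7 of store-operated and receptor-operated entry (10) and 10 of pumps and exchangers (20).

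Voltage-gated calcium channels open when the membrane depolarizes. Their alpha1 subunit forms the pore, while alpha2delta, beta and gamma subunits set how many channels reach the surface and how they gate. Inside the cell, IP3 receptors and ryanodine receptors release calcium from the endoplasmic reticulum, Stim proteins sense the emptied store and open Orai channels, and SERCA, SPCA, PMCA and NCX proteins return the calcium to the reticulum, the Golgi or the outside. In the kidney, L type and T type channels are known for setting the tone of the glomerular arterioles, and TRPC6 for its place in the filtration barrier of human podocytes.

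The tissue was left kidney of male Wistar rats aged 8 weeks. In the HP group, 4 rats were fed an AIN-93G based diet with 1.2% phosphorus for 24 days, in which KH2PO4 replaced corn starch and therefore raised potassium too. In the control group, 4 rats were fed the AIN-93G diet with 0.3% phosphorus for the same time. The 4 rats of each group were picked by the authors as average animals out of more, so the spread is that of selected animals, and 1 rat was hybridized to 1 Affymetrix whole-genome rat array.

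The deposited value of a probe set is a distribution free weighted (DFW) summary on a log scale whose base is not given in the sources used here, read as log2. DFW compresses the spread between arrays, and differences are therefore not fold changes. The median SD within diets was 2.22e-06 over all probe sets. Values are given below as the deviation from the mean of the 8 arrays in millionths (1e-06) of the deposited log unit, and the difference HP minus control with its SE. The standardized difference is that difference divided by the pooled SD within diets. The 8 arrays had medians between 7.056091 and 7.056157, a range of 65.1 millionths. All 7 proximal tubule marker genes lay above the 90th percentile of levels, as did 4 of 7 of the thick ascending limb and distal tubule. Kidney is bulk tissue here, so fewer cells of a type and less RNA per cell cannot be told apart.

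Few of the calcium channel genes passed a test between HP and control kidneys. By limma, 1 of the 72 probe sets rose past an adjusted p of 0.05 (1.39%, against 2.95% of all 31042 probe sets tested) and 0 fell (against 1.13%). Quantile normalization instead gave 0 higher and 23 lower, 8 of which had no spread left within diets. Over all 31042 probe sets it gave 316 higher and 7714 lower. The probe set that rose was 1387126_at of Atp2c1, the calcium and manganese pump of the Golgi. Its direction turned when each array was centered on its median and after quantile normalization. Centering lowers the difference of every probe set by the same amount, and moved the median over all probe sets from -0.224 to -27.9 millionths. A sign that turns negative with centering, here and below, shows only that a positive difference was smaller than that amount. Centering also carries the spread of the array medians, a range of 65.1 millionths, into every probe set. The median SD within diets was 2.22 before it. A call lost with centering, here and below, therefore cannot tell a weak difference from this added spread. Counted at an unadjusted p under 0.05, 5 probe sets lay higher (6.94%, against 9.53% of all) and 11 lay lower (15.3%, against 9.45%). Rank products, the test of the study's methods, called 2 higher (2.78%, against 3.40% of all 31099) and 2 lower (2.78%, against 2.31%). The higher ones were Cacna2d1, an auxiliary subunit, and Orai2, a store-operated pore, and the lower ones were Cacna1i, a T type pore, and Atp2c2, the other Golgi pump. Quantile normalization ended all 4 calls of rank products, with FDR between 0.652 and 1.3. No probe set was called by both tests.

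Direction among the 72 probe sets leaned the same way as on the whole array. A positive difference was found for 26 of them (36.1%, against 42.3% of all probe sets tested) and a negative one for 46. Centering each array on its median left 2 positive and 70 negative, and over all probe sets 1355 positive and 29687 negative. The median standardized difference of the list was -0.38, beside -0.21 for all probe sets. The HP arrays all exceeded the control arrays for 4 probe sets (5.56%, against 7.09% of all), which belong to Orai2, Orai3, Stim2 and Atp2c1. The HP arrays were all below the control arrays for 5 (6.94%, against 5.81%), which belong to Cacna1b with both of its probe sets, Cacna1i, Itpr1 and Atp2a2. These shares are near the background on both sides.

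**Figure D1:**
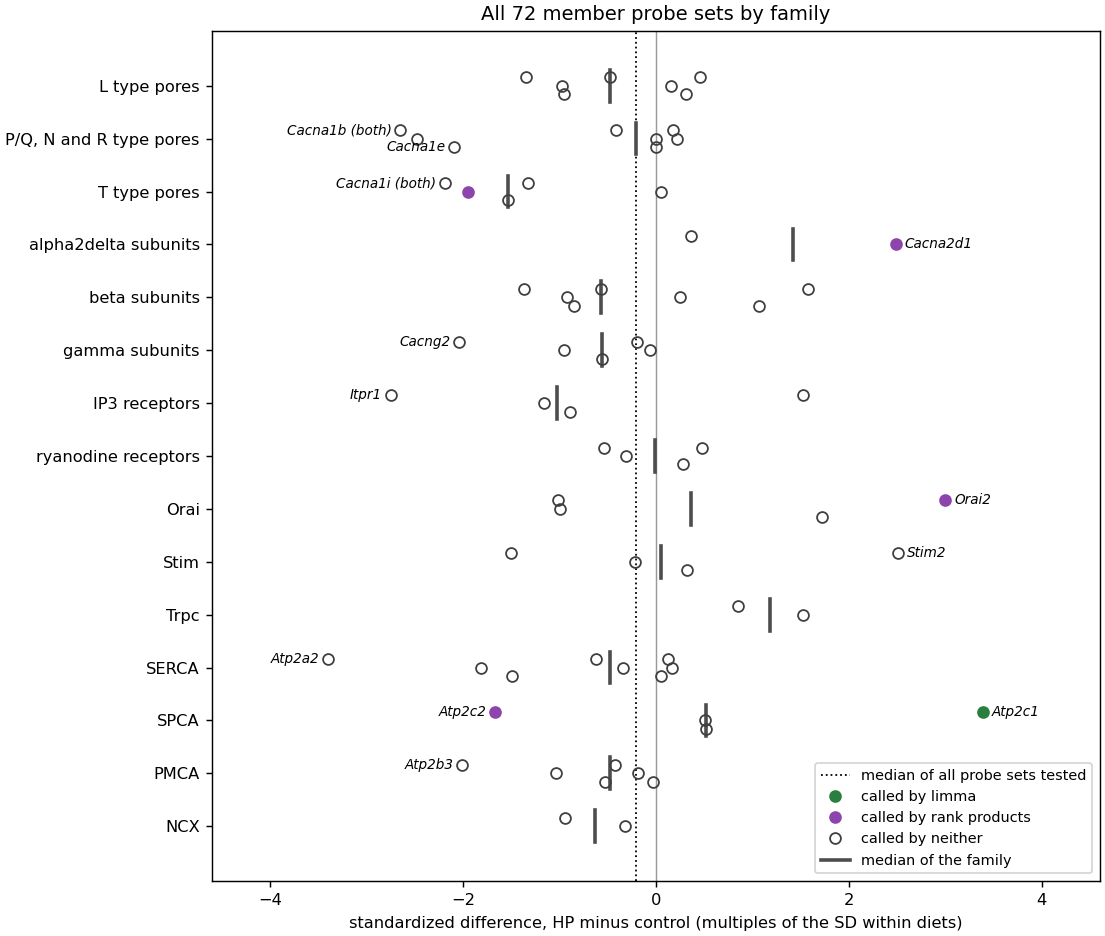
Standardized difference, HP minus control, of the 72 probe sets (points) by family, with the median of each family (bar) and of all probe sets tested (dotted line, -0.21). Only Atp2c1 is called by limma and 4 probe sets by rank products. Centering the arrays lowers every difference by the same amount. It turns every positive point but those of Cacna2d1 and Orai2 at 2.49 and 3.0.

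Spread differed widely among these probe sets. The pooled SD within diets ran between 0.322 millionths for Cacna2d3 and 35.9 millionths for 1 probe set of Cacna1d, with a median of 3.48 beside 2.22 for all probe sets. In 8 of the 72, the SD exceeded the 90th percentile of the array (12.7 millionths), and these were 2 probe sets of Cacna1d and 1 each of Cacna2d1, Cacna1i, Cacna1h, Orai2, Trpc6 and Atp2c2. All 4 calls of rank products, which rank differences without dividing by the spread, were among these 8. The SD of the Atp2c1 probe set that limma called was 3.26 millionths, at the 62.8 percentile of the array. When each probe set was divided by its SD before ranking, rank products called Atp2c1 higher (FDR = 0.0361) and Atp2a2 lower (FDR = 0.0281), and none of the original 4.

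**Figure D2:**
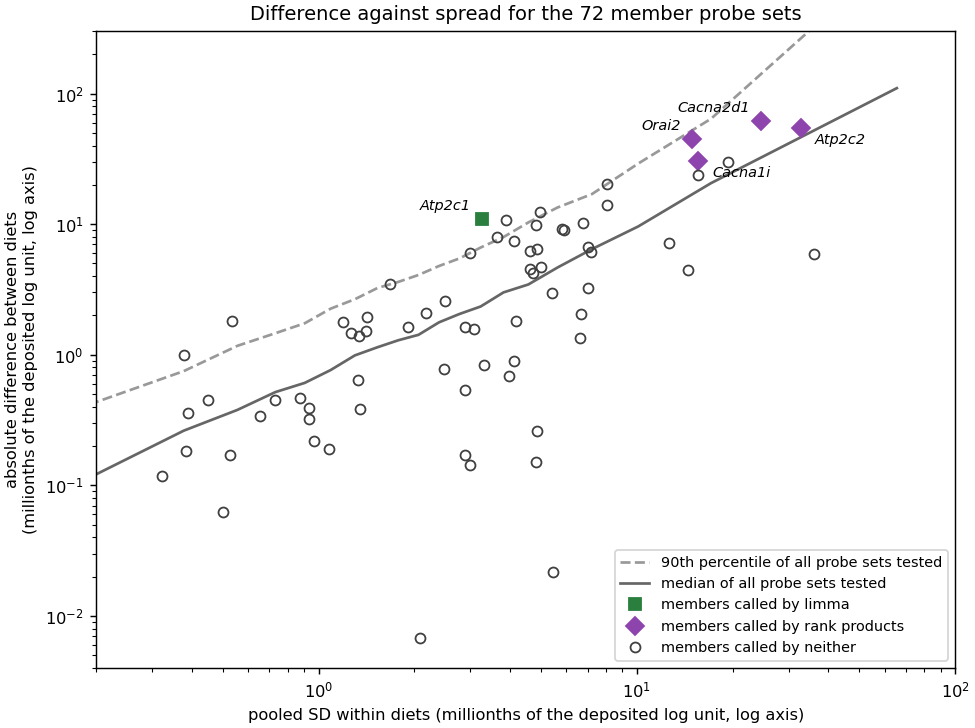
Absolute difference between diets against the pooled SD within diets for the 72 probe sets, both in millionths of the deposited log unit on log axes, with the median and 90th percentile of all probe sets tested as lines. The 4 probe sets called by rank products lie at SDs of 14.9 to 32.7 millionths, and Atp2c1, called by limma, at 3.26.

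Sequence was compared at the start sites of the genes. RefSeq promoters of the GRCr8 build (250 bases before to 50 after each start) were at hand for 32 of the genes, with 36 starts. Their median GC content was 71.7%, beside 51.7% for all 33469 promoters. A GC box (GGGCGG on either strand) lay in 26 of the 36 (72.2%), beside 33.1% of all. A TATA box (TATAAA) lay in 5.56% against 14.2%, a CCAAT box (CCAAT) in 41.7% against 37.5% and an NFAT core (GGAAAA) in 13.9% against 24.7%. The cAMP response element (TGACGTCA) was found in 0 of the 36 against 1.83% of all, and the ER stress element, which contains a CCAAT box, in 0 against 0.0657%. These are matches of letters on both strands and no test was made of them. Of the 5 genes called by either test, Cacna2d1 and Atp2c1 had an entry. Both are printed to show this GC-rich start, each 5′ to 3′ on the minus strand with the GC boxes in capitals, Cacna2d1 at the farthest upstream of its 3 starts.
Cacna2d1, chr4:20330098-20330397, GRCr8: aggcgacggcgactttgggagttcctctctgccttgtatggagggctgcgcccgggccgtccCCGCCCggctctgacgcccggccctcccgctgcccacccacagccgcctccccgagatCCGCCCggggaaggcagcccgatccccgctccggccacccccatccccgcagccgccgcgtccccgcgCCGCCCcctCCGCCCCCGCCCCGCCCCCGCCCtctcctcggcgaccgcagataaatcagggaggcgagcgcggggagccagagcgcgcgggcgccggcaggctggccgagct
Atp2c1, chr8:115010032-115010331, GRCr8: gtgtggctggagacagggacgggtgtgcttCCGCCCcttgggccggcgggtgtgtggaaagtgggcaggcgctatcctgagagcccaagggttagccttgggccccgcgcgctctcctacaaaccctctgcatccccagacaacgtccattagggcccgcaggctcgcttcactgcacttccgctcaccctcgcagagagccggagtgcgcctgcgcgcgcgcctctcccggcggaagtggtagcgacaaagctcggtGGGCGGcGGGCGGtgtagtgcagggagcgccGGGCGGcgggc
The Cacna2d1 stretch was 78.3% GC with 41 CpG and 7 GC boxes, and the Atp2c1 stretch 69.7% GC with 30 CpG and 4 GC boxes. No other searched motif lay in either printed stretch. Another start of Cacna2d1 (chr4:20329813-20330112) had 3 GC boxes, 1 CCAAT box and 1 NFAT core.

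Among the voltage-gated pores, 0 of 20 probe sets passed limma. At an unadjusted p under 0.05, 5 lay lower (against 9.45% of all probe sets tested) and 0 lay higher (against 9.53%). The 5 were both probe sets of Cacna1b, both of Cacna1i and that of Cacna1e. The differences were negative for 14 and positive for 6 (0 positive after median centering), with a median standardized difference of -0.71. The T type pores, which open at voltages near rest, had a median of -1.54 over 5 probe sets. The L type pores had -0.48 over 7, and the P/Q, N and R type pores -0.21 over 8.

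Cacna1i encodes the T type pore Cav3.3, known best from thalamic neurons. Its probe set 1369211_at deviated by -22.8, -3.26, -31.7 and -3.2 millionths on the HP arrays of replicates 1 to 4, against 35.1, 1.59, 23.3 and 0.948 on the control arrays. All HP arrays lay below all control arrays, but HP replicates 2 and 4 and control replicates 2 and 4 lay within 5 millionths of each other. The difference was -30.5 ± 11.1 (SE), a standardized difference of -1.95. It was called lower by rank products (FDR = 0.0366) and not by limma (adjusted p = 0.178), and the exact two-sided permutation test gave p = 0.0286, the smallest possible with 4 arrays against 4. With 1 array left out, the rank product FDR ran between 0.0282 and 0.167 and passed in 2 of 8 cases.

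The second probe set of Cacna1i, 1370641_s_at, had a standardized difference of -2.19 (limma adjusted p = 0.14). It deviated by 1.61, -5.96, -5.2 and -6.34 millionths on the HP arrays, against 3.29, 3.28, 0.464 and 8.85 on the control arrays. HP replicate 1 overlapped the control arrays, and the other HP arrays did not. A suffix s marks a probe set whose probes can match transcripts of more than 1 gene, so this value may hold signal of related pores. Over the 8 arrays the pair of probe sets correlated with r = 0.37.

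Cacna1b encodes the N type pore of presynaptic endings, including those of sympathetic nerves. On 1370444_at the HP arrays deviated by 0.586, -13.4, -3.79 and -7.93 millionths, against 2.71, 5.3, 5.23 and 11.3 on the control arrays. No HP array reached the control range. The difference was -12.3 ± 3.51 (SE), standardized -2.48, with an adjusted p of 0.104 by limma and an FDR of 0.203 by rank products. The other probe set, 1371175_a_at, had a standardized difference of -2.65 (limma adjusted p = 0.206) on a far smaller scale, with HP deviations between -0.975 and 0.152 millionths and control deviations between 0.191 and 0.796. The r between both probe sets was 0.84 over the 8 arrays, the highest of any pair of 1 gene in the list.

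The other pores are given more briefly. Cacna1e, the R type pore, had a standardized difference of -2.09 (limma adjusted p = 0.163). Cacna1h, the T type pore Cav3.2, had -1.54 and -1.33 on its 2 probe sets (limma adjusted p = 0.276 and 0.35). Its probe set 1368398_at deviated by 11.1, -33, -27.9 and -10.1 millionths on the HP arrays, against 4.38, 43.1, 4.79 and 7.65 on the control arrays, and the diets overlapped. Rank products gave it an FDR of 0.0653, and 0.018 without HP replicate 1, the only HP array above the control values of replicates 1, 3 and 4. Cacna1g, the third T type pore, had 0.05, negative after centering. The 5 probe sets of Cacna1a, the P/Q type pore, lay between -0.42 and 0.22. The 7 probe sets of the L type pores Cacna1c, Cacna1d, Cacna1f and Cacna1s lay between -1.35 and 0.46, with adjusted p of 0.342 or above by limma.

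Of the 14 probe sets of auxiliary subunits, 0 passed limma and 1 was called higher by rank products. Their median standardized difference was -0.38, with 5 positive and 9 negative differences (1 positive after median centering). The 5 probe sets of gamma subunits were all negative, between -2.04 and -0.06. The 7 of beta subunits lay between -1.37 and 1.58.

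Cacna2d1 encodes alpha2delta-1, the subunit that binds gabapentin. Its only probe set, 1369649_at, deviated by -10.8, 50.9, 41.8 and 40.9 millionths on the HP arrays, against -56.3, -23.4, -7.33 and -35.8 on the control arrays. HP replicates 2, 3 and 4 lay above every control array, and HP replicate 1 lay within the control range. The difference was 61.4 ± 17.4 (SE) millionths, standardized 2.49. Rank products called it higher (FDR = 0.0263), limma did not (adjusted p = 0.101), and the exact permutation p was 0.0571. The FDR passed in 5 of 8 cases with 1 array left out and missed without HP replicate 2 (0.101), 3 (0.0991) or 4 (0.103). After median centering the standardized difference was 2.54 (limma adjusted p = 0.326), and after quantile normalization it was 0.19 (rank product FDR = 0.706).

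Cacna2d3, the other alpha2delta subunit measured, had a standardized difference of 0.36 and the smallest spread of the list. Cacng2, known as stargazin and as a partner of AMPA receptors, had -2.04 on 1375735_at and -0.95 on 1368759_at (limma adjusted p = 0.162 and 0.521). Cacnb3, a beta subunit, had 1.58 (limma adjusted p = 0.265) and -0.58 after centering. Cacnb1, the beta subunit of skeletal muscle, had -1.37 and -0.85 (limma adjusted p = 0.35 and 0.574), and its pair of probe sets correlated with r = 0.75 over the 8 arrays.

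**Figure D3:**
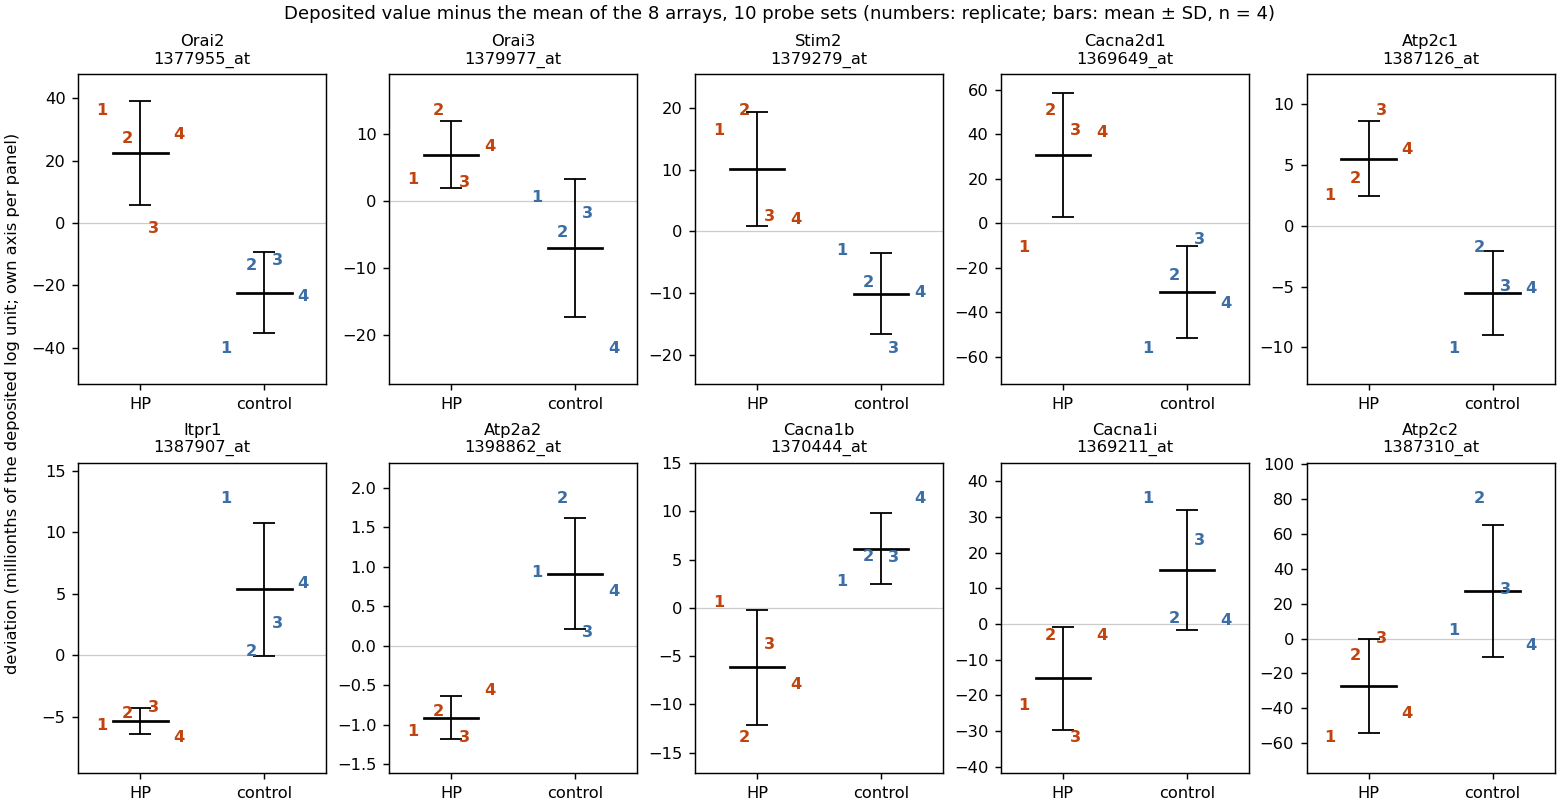
Deviation of each array (digits are replicate numbers, HP in orange and control in blue) from the mean of the 8 arrays in millionths of the deposited log unit, for 10 probe sets, with mean ± SD (n = 4 each). Each panel has its own axis. The upper row has positive differences, of which those of Orai3, Stim2 and Atp2c1 turn negative after median centering, and the lower row has negative ones.

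The store release channels had 0 of 8 probe sets past limma and 0 called by rank products, with a median standardized difference of -0.43. The 4 of the IP3 receptors, which open on the messenger IP3, had a median of -1.02, and the 4 of the ryanodine receptors, which open on calcium itself, -0.01. Itpr1 encodes the IP3 receptor of type 1. Its probe set 1387907_at deviated by -5.75, -4.72, -4.23 and -6.66 millionths on the HP arrays, against 12.7, 0.32, 2.54 and 5.85 on the control arrays. The HP arrays lay close together with an SD of 1.08, below all control arrays, whose SD was 5.38. The difference of -10.7 ± 2.74 (SE), standardized -2.75, missed the threshold of limma (adjusted p = 0.0797) and of rank products (FDR = 0.236), with an exact permutation p of 0.0286. Its sign turned after quantile normalization, at 0.71.

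Itpr3, the type of many epithelia, had a standardized difference of 1.52 (limma adjusted p = 0.282), which was -0.57 after centering and -3.04 after quantile normalization. Itpr2 had -1.16 and -0.89 on its 2 probe sets (limma adjusted p = 0.443 and 0.547). The 3 IP3 receptors thus did not share a sign, and none passed. Ryr1, the release channel of skeletal muscle, had -0.54 (limma adjusted p = 0.74). The 2 probe sets of Ryr2, the cardiac form, had -0.31 and 0.28, and Ryr3 had 0.48, all with adjusted p of 0.788 or above by limma.

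Store-operated and receptor-operated entry was the only subfamily with a positive median, 0.59 over 10 probe sets, which was -0.77 after median centering. By limma 0 passed. At an unadjusted p under 0.05, 3 lay higher (against 9.53% of all probe sets tested) and 0 lay lower (against 9.45%). The 3 belonged to Orai2, Orai3 and Stim2. In each of them all HP arrays exceeded all control arrays (against 7.09% of all). Rank products called 1 of the 10 higher (against 3.40%).

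Orai2 is a pore of the store-operated channel, opened by Stim proteins at the emptied store. On 1377955_at the HP arrays deviated by 36.1, 27, -1.87 and 28.2 millionths, against -40.2, -13.7, -12 and -23.5 on the control arrays. HP replicate 3 was the lowest of the HP arrays and still lay above the control range. The difference was 44.7 ± 10.5 (SE), standardized 3.0, and diet held 75% of the variation over the 8 arrays. Rank products called it higher (FDR = 0.0312), and limma gave an adjusted p of 0.0619. Without HP replicate 3 it was 0.0312, and without any 1 of the other arrays between 0.109 and 0.143. The standardized difference was 0.50 after median centering (limma adjusted p = 0.504) and 0.11 after quantile normalization (rank product FDR = 0.652). With 1 array left out, the FDR passed in 4 of 8 cases and missed without any 1 of the 4 HP arrays, up to 0.106. The second probe set, 1379159_at, had a standardized difference of -1.02 (limma adjusted p = 0.486) and correlated with the first at r = -0.15, so the 2 probe sets of Orai2 had opposite signs.

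Stim2 is a sensor of calcium in the reticulum. Its probe set deviated by 16.4, 19.6, 2.37 and 1.96 millionths on the HP arrays, against -3.14, -8.3, -19 and -9.88 on the control arrays. The standardized difference was 2.51 (limma adjusted p = 0.0999, rank product FDR = 0.117), and -0.22 after centering. Orai3, the third pore of the family, deviated by 3.27, 13.6, 2.85 and 8.13 millionths on the HP arrays, against 0.622, -4.6, -1.86 and -22 on the control arrays. Control replicate 4 lay far below the rest, and the standardized difference of 1.72 (limma adjusted p = 0.229) was -0.50 after centering.

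The other entry genes had both signs. Orai1, the pore first known from T cells, had -1.0 (limma adjusted p = 0.621). Stim1, the main store sensor, had -1.50, -0.22 and 0.32 on its 3 probe sets (limma adjusted p of 0.29 or above). Trpc6, the receptor-operated channel of podocytes and smooth muscle, had 1.52 (limma adjusted p = 0.281), with HP deviations between -2.61 and 36 millionths and control deviations between -32 and -1.13. The diets overlapped, and centering gave -0.12. Trpc1 had 0.85 (limma adjusted p = 0.565), negative after centering.

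Pumps and exchangers had 1 of 20 probe sets past limma, with 14 negative and 6 positive differences (0 positive after median centering) and a median standardized difference of -0.39. Atp2c1 encodes SPCA1, which loads calcium and manganese into the Golgi and is mutated in human Hailey-Hailey disease. On 1387126_at the HP arrays deviated by 2.46, 3.9, 9.49 and 6.23 millionths, against -10.1, -1.78, -5 and -5.19 on the control arrays. No HP array overlapped the control arrays. The difference was 11 ± 2.31 (SE), standardized 3.39 (limma adjusted p = 0.0447), and turned to a standardized -0.58 after median centering (limma adjusted p = 0.491) and to a call lower after quantile normalization, which left it no spread within diets. The exact permutation p was 0.0286 and the rank product FDR 0.24. The limma call was lost without any 1 of the 8 arrays, at adjusted p between 0.0621 and 0.109. The other probe sets of Atp2c1 had 0.51 and 0.52 (limma adjusted p = 0.759 and 0.796), also negative after centering.

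Atp2c2 encodes SPCA2, the relative of Atp2c1 found in secretory epithelia. Its only probe set, 1387310_at, deviated by -56.5, -9.84, 0.233 and -43.1 millionths on the HP arrays, against 4.72, 80.1, 28.2 and -3.78 on the control arrays. HP replicate 3 and control replicate 4 overlapped. The difference was -54.6 ± 23.2 (SE), standardized -1.67, over the second-largest spread of the list. Rank products called it lower (FDR = 0.0158) and limma did not (adjusted p = 0.241), with an exact permutation p of 0.0571. The FDR passed in 6 of 8 cases with 1 array left out and missed without control replicate 2 (0.117) or 3 (0.0809), the highest control arrays.

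Atp2a2 encodes SERCA2, the pump that refills the reticulum in most cells. On 1398862_at the HP arrays deviated by -1.09, -0.83, -1.16 and -0.564 millionths, against 0.927, 1.86, 0.17 and 0.689 on the control arrays. The diets did not overlap, on a scale of about 1 millionth. The difference was -1.82 ± 0.378 (SE), standardized -3.40, the most negative of the 72, and limma gave an adjusted p of 0.0811. The other 4 probe sets of Atp2a2 had -1.82, -0.62, 0.05 and 0.17, with adjusted p between 0.207 and 0.984 by limma.

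Export pumps and exchangers had small negative values without a call. The 6 probe sets of the plasma membrane pumps Atp2b2, Atp2b3 and Atp2b4 were all negative, between -2.01 and -0.03. The lowest was 1388237_s_at of Atp2b3, a pump best known from brain, with HP deviations between -3.76 and -1.32 millionths and control deviations between -1.37 and 8.3 (limma adjusted p = 0.17). By its suffix s, this probe set may also hold signal of related genes. The other probe sets of Atp2b3 had -1.04 and -0.03 (limma adjusted p = 0.493 and 0.99). The sodium-calcium exchangers Slc8a2 and Slc8a3 had -0.32 and -0.94 (limma adjusted p = 0.897 and 0.519).

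**Figure D4:**
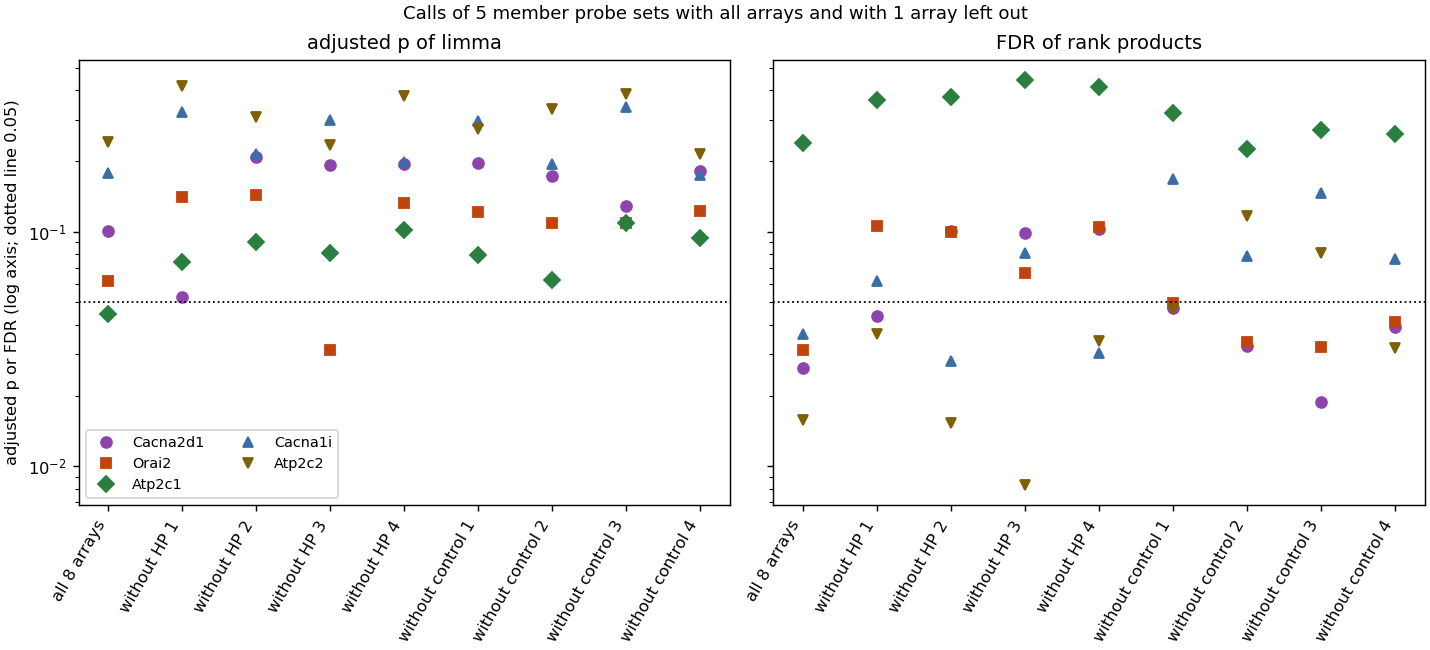
Adjusted p of limma (left) and FDR of rank products (right) on log axes for the 5 called probe sets, with all 8 arrays and with each array left out, and the 0.05 threshold as a dotted line. Atp2c1 lies under the line on the left with all 8 arrays (0.0447) and above it (0.0621 to 0.109) whichever array is left out, while Atp2c2 stays under it on the right in 6 of 8 cases.

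Of the 18 genes with more than 1 probe set, 9 had a single sign over all of them and 9 had mixed signs. After median centering only Orai2 had mixed signs. Centering made 70 of the 72 differences negative by lowering all of them equally, so this count does not measure agreement between probe sets. The 46 pairs of probe sets of 1 gene correlated over the 8 arrays with r between -0.41 and 0.84, with a median of 0.24, and 34 were above 0. Both probe sets of Cacna1b, Cacna1i and Cacna1h were negative, as were both of Cacnb1, Cacng2 and Itpr2.

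Genes around these channels were read from lists written from general knowledge of calcium signaling. Over all probe sets tested, limma called 2.95% higher and 1.13% lower. In the other members of the same families, 0 of 13 probe sets passed limma, with a median standardized difference of -0.41. Among endolysosomal and mitochondrial transporters, 0 rose and 2 of 16 fell, both of Letm1, the cation exchanger of the inner mitochondrial membrane (standardized -3.50 and -3.49, limma adjusted p = 0.0455 and 0.0479). Both calls were lost after median centering (0.326 each) and after quantile normalization (1 and 0.0649). The other probe set of Letm1 had -0.9 (limma adjusted p = 0.547). Among the regulators of release channels and of SERCA, 2 of 41 rose and 1 fell. The higher ones were both Fkbp1a, which encodes the ryanodine receptor partner FKBP12 (4.21 and 4.11, limma adjusted p = 0.0248 and 0.0276), and both were negative after centering. The other probe set of Fkbp1a had 2.37 (limma adjusted p = 0.116). The lower one was Homer1, a scaffold that ties IP3 receptors to surface receptors (-6.40, limma adjusted p = 0.00788). This call was lost after median centering (0.326). It was kept after quantile normalization (limma adjusted p = 0.0444), which called 7714 of all 31042 probe sets lower. All 5 probe sets of Homer1 had negative differences.

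Among calcium signal relays, 1 of 37 rose and 1 fell (against 2.95% and 1.13% of all probe sets tested), which is near that share. These were Nfatc1, a transcription factor freed by calcineurin (3.52, limma adjusted p = 0.0399, negative after centering), and Rcan2, an inhibitor of calcineurin (-4.10, limma adjusted p = 0.0266). The Rcan2 call was lost after median centering (0.326) and quantile normalization (0.279). The other probe set of Rcan2 had -1.88 (limma adjusted p = 0.196). Among phospholipases C and Gq proteins, which make IP3, 1 of 11 rose, namely Plcb3 (4.18, limma adjusted p = 0.0263, negative after centering), and 0 fell. Rank products called none of these pathway probe sets, at either sign. The paper reports Atp2b1 as higher on a probe set that these lists do not hold.

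Markers of some other cells were called more often by limma, beside 2.95% higher and 1.13% lower over all probe sets tested. Of 15 macrophage probe sets 11 rose and 0 fell, with a mean level of 7.7949 to 7.7957 on the HP arrays and 7.7938 to 7.7941 on the control arrays. Of 9 fibroblast probe sets 8 rose (9.2168 to 9.2175 in HP, 9.2146 to 9.2151 in control kidneys), and of 9 tubular injury probe sets 5 rose (8.3740 to 8.4027 in HP, 8.2943 to 8.3061 in control kidneys). T cell markers rose in 2 of 10 and smooth muscle markers in 2 of 16 probe sets. By limma, no probe set passed among markers of skeletal muscle (8 probe sets), neurons (11), endothelium (10), podocytes (10), proximal tubule (9), thick ascending limb and distal tubule (8) or collecting duct (9). Rank products called 1 endothelial probe set lower, of Vwf (FDR = 0.00102), and 1 of the proximal tubule, of Slc34a1 (FDR = 0.0169), and none in the other 5 of these lists. Their part in the values of the calcium channel genes was not tested.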

How the data were processed

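Kidney RNA of 4 HP rats and 4 control rats was hybridized to 8 arrays, 1 rat each. The authors deposited 1 table of log2-scale values (base not given in the sources used here), made with DFW over all arrays, and it holds no detection calls or intensities. Probe sets were named by the platform annotation. Every adjusted p comes from limma 3.58.1 (R 4.3.3, prior df 0.772) with Benjamini-Hochberg adjustment over 31042 probe sets, without the 57 Affymetrix controls, at a threshold of 0.05. Rank products followed the methods (16 array pairs, 1000 permutations, FDR under 0.05, 31099 probe sets). Exact permutation tests were two-sided over 70 arrangements.

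The members and lists were chosen with earlier results of these data known. Given by array were called probe sets, those of Cacna1i, Cacna2d1 and Atp2c2 and the smallest p of each subfamily, with further arrays where a figure shows them. Named with statistics were up to 4 genes with the smallest p per subfamily and their other probe sets. The remaining members were named by family. The number of arrays limits precision. The tests were checked on simulated data. Alternatives were other moderation, array weights, a replicate block, 1 probe set per gene, quantile normalization, median centering, removal of the lowest 25% of means, removal of controls, division by the SD and removal of each array. The other steps ran in Python 3.11.15 (scipy 1.17.1, pandas 2.3.3, numpy 2.4.6, with figures by matplotlib 3.10.9).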

Additional observations from a re-analysis of the deposited data

Results flagged for a closer look

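A gap of 1 array from the rest was looked for in 42 sets of 4 arrays of 1 diet, as the gap to the nearest array divided by the range of the 4. Dixon's 95% critical value was exceeded in 4 of the 42, and chance alone exceeds it in about 1 of 20 sets. On 1369649_at of Cacna2d1, HP replicate 1 was the lowest HP array with a ratio of 0.837. Without it the limma adjusted p was 0.0528 and the rank product FDR 0.0438. On 1370641_s_at of Cacna1i, HP replicate 1 was the highest HP array with a ratio of 0.856. On 1369675_at of Itpr2, control replicate 1 was the highest control array with 0.896, and on 1368398_at of Cacna1h control replicate 2 was the highest control array with 0.916.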

How the results depend on the processing

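The count of calcium channel probe sets called higher by limma was 1, and it was 0 with the replicate block, without moderation, with median centering and with quantile normalization. It was 2 with 1 probe set per gene, where Orai2 (adjusted p = 0.0455) joined Atp2c1 (0.0326). With 1 array left out it ran between 0 and 1, the 1 being Orai2. The count called lower was 0, and 0 with any 1 array left out, but 23 after quantile normalization. That step left 34 of the 72 probe sets without spread within diets, 8 of the 23 included, and over all probe sets it gave 316 higher and 7714 lower calls against 915 and 350 before it. With the block these were 254 and 115, with median centering 440 and 155, without moderation 522 and 171, and with 1 array left out 339 to 672 higher and 79 to 219 lower. Rank products called 2 higher and 2 lower. Division by the SD gave 1 and 1, quantile normalization 0 and 0, and leaving out 1 array 0 to 2 each. Without HP replicate 1 it called Cacna1h (0.018) in place of Cacna1i. Median centering carried the spread of the array medians into every probe set. It also lowered every difference by the same amount, which brought the median of all probe sets to -27.9 millionths. That shift reversed the standardized difference of Cacnb3 (-0.58), Atp2c1 (-0.58), Itpr3 (-0.57), Orai3 (-0.50), Stim2 (-0.22) and Trpc6 (-0.12). Quantile normalization reversed Itpr1 (0.71), Itpr3 (-3.04), Orai3 (-2.12) and Stim2 (-0.71), and the cause was not tested. Atp2c1, called higher before it, was called lower after it on 1387126_at, with a difference of -101 millionths and no spread left within diets, and lower on 1371134_at (adjusted p = 0.0201). The limma call of Atp2c1 held with array weights (adjusted p = 0.0439), trend and robust moderation (0.0466) and removal of the lowest 25% of means (0.0375). Same-numbered arrays of both diets deviated together with r of 0.121, 0.0887, 0.0626 and 0.00148. The labels name no pairing, so the numbers are not taken as pairs. Of the 4 HP arrays, 3 correlated best with the control array of their own number, as did 2 of the 4 control arrays with the HP array. With the replicate block, limma gave Atp2c1 an adjusted p of 0.0886, Cacna2d1 0.0648, Stim2 0.0827 and Orai2 0.186, and called no member. With 4 arrays per diet, small differences were not detectable, and without detection calls the presence of a transcript was not tested.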

Other observations

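The medians of the 8 arrays fell into clusters that cross the diets. HP replicate 1 and control replicates 1, 2 and 4 lay at -31.7, -28.4, -25.9 and -30.6 millionths from their mean. HP replicates 2, 3 and 4 and control replicate 3 lay at 33.5, 26.5, 27.1 and 29.4 millionths. The gap of 52.4 millionths between the clusters exceeds the absolute difference between diets of 70 of the 72 calcium channel probe sets. The median difference between diets over all probe sets was only -0.224 millionths before centering. The SD within diets over all probe sets had a median of 2.22 millionths and a 90th percentile of 12.7, both below the gap. Most probe sets thus did not follow the array medians in size. Whether the gap reflects a shift of whole arrays was not tested.

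Cacna1d, an L type pore, held the widest spread of the list without a difference between diets. On 1369086_a_at the HP arrays deviated by -22.8, 44.6, -8.5 and -1.47 millionths, against -22.4, 24.2, 38.2 and -51.8 on the control arrays (standardized difference 0.16).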
